A study of Mus musculus with 12 samples.

Results

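The ribosomal protein paralogs examined here were Rpl22l1, Rpl7l1, Rpl36al, Rps27l and Rpl39l, and they were listed by name. The rule used no measured value, although earlier results of these data were known when the list was made. A read was counted for one of them when its tail call carried the tag PASS, its transcript was classed as mRNA and its gene name was the listed one. Of the 5 genes, 4 had reads, 11706 in all, out of 4312509 reads on 14651 genes, and the same 4 passed the filter of 30 reads over the libraries. No line of the table named Rpl39l.

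P19, a mouse line grown from an embryonal carcinoma, can be driven towards neurons with retinoic acid. Wild-type cells at D0 had not been induced and came from serum-containing growth medium, and cells at D2, D4 and D6 had been 2, 4 or 6 days in NDiff 227 medium with 500 nM retinoic acid, with 3 libraries per day. The change of medium and the retinoic acid cannot be told apart. Native RNA was sequenced on nanopores, so that 1 read stands for 1 molecule and also gives the length of its poly(A) tail, and levels of different genes can be compared without dividing by transcript length. The smallest library, D2 replicate 1, held 121280 kept reads and the largest, D0 replicate 2, 617765, and the 3 libraries of D2 were the shallowest set of a day. The study's methods call the replicates of a day biological, and the labels do not say what they share, such as a passage or an induction. Each of the 13 sequencing runs held 1 day, so a run and a day cannot be told apart. Markers went with the labels. The summed level of 8 pluripotency markers lay between 1952 and 2218 CPM (reads of a gene per 1000000 kept reads, scaled by the trimmed mean of M-values) at D0 and between 181 and 224 at D6, where Nanog, Utf1 and Tdgf1 were at 0 and most of the sum was Sox2, which neural cells also express. Dppa5a and Zfp42 were at 0 on every day. The sum of 8 neural markers went from 522–547 at D0 to 2205–2345 at D6. Summed levels of 5 endoderm, 5 mesoderm and 5 fibroblast markers reached at most 10.9 CPM in a library, and those of 5 glial markers 38.1, with Aqp4 and Olig1 at 0 on each day.

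Most ribosomal proteins are encoded in mammals by a single working gene and many pseudogenes. A few have a second working gene, a paralog, whose protein can take the place of the parent protein or do other work. Rpl22l1 encodes the paralog of the large-subunit protein Rpl22 and is known to be held down by Rpl22. Rpl7l1 belongs to the family of the large-subunit protein Rpl7 and is known mainly for early steps of large-subunit assembly. Rpl36al encodes a protein almost the same as Rpl36a, and Rpl39l is the testis-enriched paralog of Rpl39. Rps27l is the paralog of the small-subunit protein Rps27 and a known target of p53. Messenger RNAs of ribosomal proteins typically start with a terminal oligopyrimidine (TOP) run, through which the mTOR pathway controls their translation.

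The sequences show how far a read can tell a paralog from its parent, and they are given for a pair with no read of the paralog, Rpl39l with Rpl39, and for the pair whose parent has a near-identical copy, Rps27l with Rps27. In the coding sequences below, from the GENCODE vM21 transcripts and 5′ to 3′, capitals mark the positions at which the members of a pair differ.
Rpl39l: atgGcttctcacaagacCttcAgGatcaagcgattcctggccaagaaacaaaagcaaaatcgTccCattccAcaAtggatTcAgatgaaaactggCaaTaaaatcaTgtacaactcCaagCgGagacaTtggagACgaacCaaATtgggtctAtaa
Rpl39: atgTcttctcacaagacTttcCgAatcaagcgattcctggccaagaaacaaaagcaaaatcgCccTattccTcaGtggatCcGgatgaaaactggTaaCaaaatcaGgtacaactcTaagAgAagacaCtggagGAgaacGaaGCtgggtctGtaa
Rps27l: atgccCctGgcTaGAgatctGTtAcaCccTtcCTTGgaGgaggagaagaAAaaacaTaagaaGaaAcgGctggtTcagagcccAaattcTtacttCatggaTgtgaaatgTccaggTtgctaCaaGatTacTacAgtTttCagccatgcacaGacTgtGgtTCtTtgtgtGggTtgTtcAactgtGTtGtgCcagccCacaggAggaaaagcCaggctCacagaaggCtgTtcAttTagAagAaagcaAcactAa
Rps27: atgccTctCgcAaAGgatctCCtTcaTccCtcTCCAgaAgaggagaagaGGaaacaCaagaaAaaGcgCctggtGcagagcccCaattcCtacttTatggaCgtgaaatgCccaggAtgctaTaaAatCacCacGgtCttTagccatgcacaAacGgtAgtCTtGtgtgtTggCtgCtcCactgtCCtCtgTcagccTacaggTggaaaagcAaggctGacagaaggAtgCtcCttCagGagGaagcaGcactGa
Rpl39l differed from Rpl39 at 23 of 156 positions (identity 85.3%), with a longest shared run of 38 nt. Rps27l differed from Rps27 at 61 of 255 positions (identity 76.1%), and no shared run exceeded 11 nt. Identity over the aligned coding sequence was 87.9% for Rpl36al and Rpl36a (39 differences in 321 nt), 70.8% for Rpl22l1 and Rpl22, and 56.9% for Rpl7l1 and Rpl7. Rpl22l1 shared 6 words of 21 nt with the main transcript of its parent, Rpl36al 8, and Rps27l and Rpl7l1 0. More words were shared with other loci. Of the 21-nt words of the main Rpl22l1 transcript, 68.1% also occur in transcripts of other genes, most of them in the processed pseudogene Gm15421, and for Rpl36al the share was 65.4%, most of it in Gm49383, which is annotated as protein coding. The shares were 33.6% for Rps27l and 30.2% for Rpl7l1. The share of reads with a mapping quality of at least 10, the aligner's score for a unique placement, was 49.5% for Rpl22l1, 70.9% for Rpl36al, 90.9% for Rps27l and 99.7% for Rpl7l1. Levels, ratios and tail changes were therefore repeated with those reads alone.

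Among the parents the mapping was less certain for Rpl22, Rps27 and Rpl36a. A mapping quality of at least 10 was reached by 33.8% of Rpl36a reads, 98.3% of Rpl7 reads and 99.6% of Rpl39 reads. Only 0.383% of Rpl22 reads passed that limit, and 3 coding transcripts of the gene took 29.6%, 34.9% and 32.7% of its reads. For Rps27, 15.7% passed, and 321 of its 325 words of 21 nt also occur in Rps27rt, a retrotransposed copy, to which 12149 reads were assigned against 2922 for Rps27. The levels, ratios and tail changes of Rps27 are therefore followed by values of both copies summed, a choice made after their values were seen. Its quartiles and its correlation are given for Rps27 alone.

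The bases around the annotated starts are shown for the pyrimidine runs they hold. The windows below hold 10 bases before and 20 bases from the annotated start (RefSeq, GRCm38.p6), and capitals mark the longest pyrimidine run that opens with C.
Rpl22l1, chr3:28805498-28805527 (+): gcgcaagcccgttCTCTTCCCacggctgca
Rpl36al, chr12:69184048-69184077 (-): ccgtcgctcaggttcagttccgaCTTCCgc
Rps27l, chr9:66946076-66946105 (+): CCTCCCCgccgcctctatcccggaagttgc
Rpl7l1, chr17:46782637-46782666 (-): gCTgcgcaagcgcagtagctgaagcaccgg
The run was 8 nt long in Rpl22l1, 7 nt in Rps27l, 5 nt in Rpl36al and 2 nt in Rpl7l1. It began 3 nt past the start in Rpl22l1 and 13 nt past it in Rpl36al. In Rps27l and Rpl7l1 it began at -10 and -9 from the start and lay wholly before it. Of 32817 annotated starts, 8.68% had a run of at least 8 nt in this window, 13.5% of at least 7, 35.8% of at least 5 and 96.0% of at least 2. A run in this window is a description of these letters, searched on the sense strand, and not a mapped start. The 5′ ends of Rpl22l1 reads lay at a median of 16 nt past the annotated start (quartiles 14 and 22). Those of Rpl36al lay at 45 nt and those of Rps27l at 40 nt, and direct RNA reads stop short of the true end. Reads reached nearly the whole length of 3 of the paralogs, with a median of 55 of 525 nt unread in Rpl22l1, 61 of 526 in Rpl36al and 36 of 499 in Rps27l. In the 2606-nt transcript of Rpl7l1 the median was 380.5 nt.

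The paralogs were not expressed alike. At D0 Rpl22l1 (ENSMUSG00000039221.10, chr3:28805436-28807424) stood highest with 1694 ± 98.3 CPM (mean ± SD, n = 3), above Rpl36al (ENSMUSG00000049751.6, chr12:69182731-69184083) with 959 ± 61.1. Rps27l (ENSMUSG00000036781.13, chr9:66946086-66949516) followed with 624 ± 34.6, and Rpl7l1 (ENSMUSG00000063888.7, chr17:46773907-46782672) was the lowest of those with reads at 215 ± 32.4. The libraries of neighbours in this order did not overlap at D0 or D2 (exact permutation p = 0.1, two-sided, the smallest that 3 against 3 libraries allow). At D4 and D6 the order was the same, but Rpl36al and Rps27l overlapped (exact permutation p = 0.3 on both days) and did not differ beyond their spread. This order depended on the mapping quality. With reads of at least 10 alone, D0 kept it without overlap, at 1327, 1024, 867 and 336 CPM, but Rps27l stood above Rpl36al on each later day and above Rpl22l1 at D4 and D6. At D6 the means were 660.5 for Rps27l, 645 for Rpl22l1 and 599 for Rpl36al, and neighbours among these 3 overlapped on each later day (exact permutation p between 0.4 and 0.9).

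Set against their parents, Rpl22l1 was as abundant as Rpl22 and Rpl7l1 was a small fraction of Rpl7. At D0 there were 109 reads of Rpl22l1 for 100 of Rpl22, 39.0 of Rpl36al for 100 of Rpl36a, 108 of Rps27l for 100 of Rps27 and 6.72 of Rpl7l1 for 100 of Rpl7. With both copies of the Rps27 sequence summed, Rps27l stood between 17.8 and 19.2 reads per 100 in the D0 libraries. The value against Rps27 alone depends on how reads were divided between near-identical copies. For Rpl36al the value also depended on the mapping quality, since reads of at least 10 gave 961 of Rpl36al and 1248 of Rpl36a at D0, or 77.1 per 100. For Rps27l against Rps27 alone they gave 819 and 131, or 622 per 100, and for Rpl7l1 6.89 per 100.

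Rpl39l (ENSMUSG00000039209.12, chr16:10170226-10174911) was listed with no read in any library, while its parent Rpl39 had 9975 reads. A count of 0 allows up to 3 reads, or a share of up to 6.96e-05% of all kept reads, and between 0.000486% and 0.00247% of a single library, counting error only. Whether its transcripts were among those the reads were aligned to was not tested. The paralogs Rpl3l, Rpl10l and Rps4l had no read either.

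**Figure D1:**
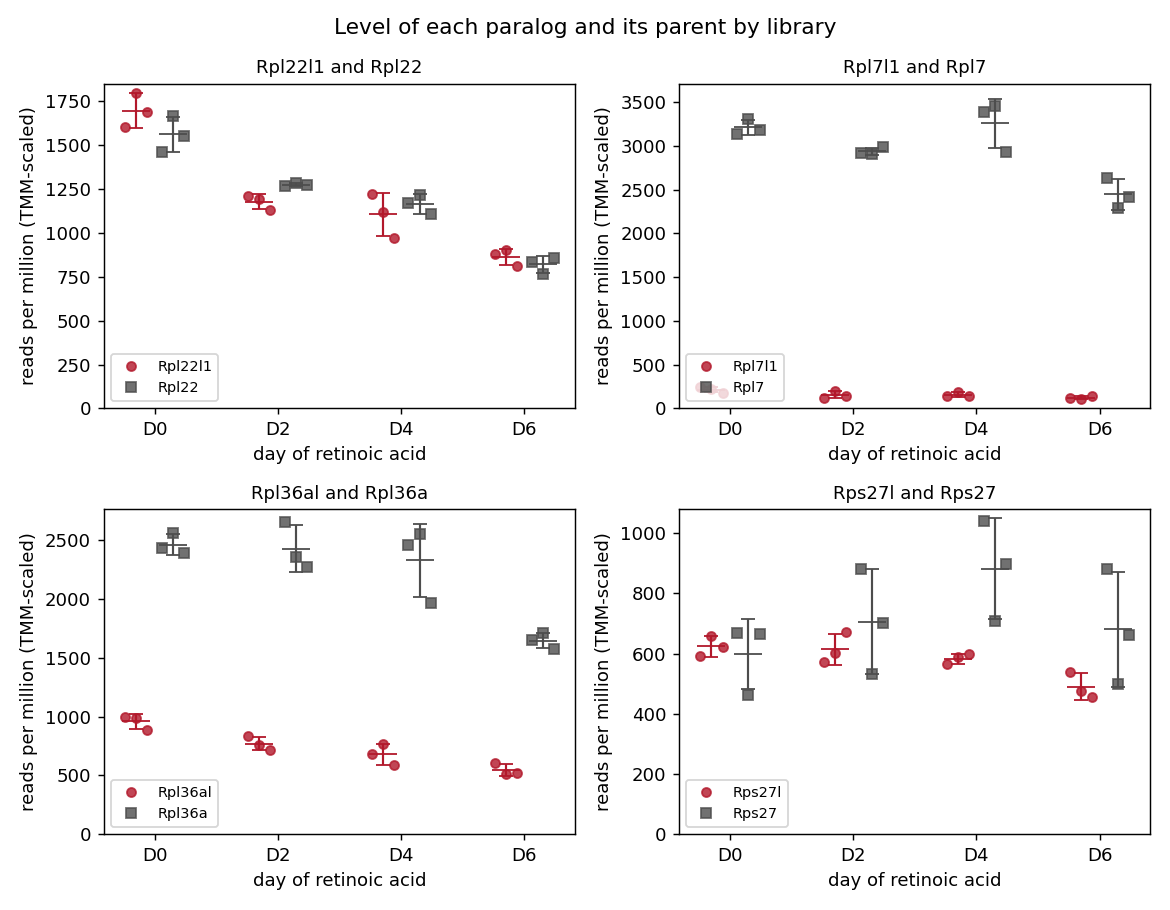
Level of each paralog (circles) and its parent (squares) in CPM after scaling, by day, 1 point per library, with the mean and SD (n = 3). Rpl22l1 fell from 1694 to 862 and Rpl36al from 959 to 546 between D0 and D6, and the D6 libraries of all 4 paralogs lay under their D0 libraries.

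The level of all 4 detected paralogs fell between D0 and D6. By limma-voom with Benjamini-Hochberg adjustment over 9343 genes, 4 of 4 were lower at D6. Their median change was -0.81 on the log2 scale against -0.0016 over all genes tested, of which 18.8% were called lower. The libraries of D6 lay wholly under those of D0 for each of the 4, as they did for 24.2% of all genes tested. At D4, 2 of 4 were lower (12.3% of all genes), and at D2, 1 of 4 (5.99% of all genes). The canonical ribosomal protein genes fell too, 44 of 47 of the large subunit and 29 of 32 of the small subunit at D6, with medians of -0.57 and -0.53. Levels are shares of the reads, and less RNA per cell cannot be told apart from fewer cells of a type.

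Rpl22l1 was called lower on each of the later days and had the largest fall of the 4 paralogs at D6. Its D0 libraries held 1599.6, 1796 and 1686 CPM, those of D2 1208, 1193 and 1128, those of D4 1219.8, 1117 and 972, and those of D6 876, 899 and 812. The libraries of D2, D4 and D6 all lay under those of D0. The log2 fold change was -0.53 ± 0.10 (SE) at D2 (adjusted p = 5.6e-05), -0.64 ± 0.09 at D4 (3.01e-08) and -0.97 ± 0.09 at D6 (1.79e-13), the last a level 1.96-fold lower. With reads of mapping quality of at least 10, the fall at D6 was -1.02 and that at D4 was -0.94. The D2 value was not called after thinning of all libraries to 121280 reads (-0.40, adjusted p = 0.0647). Of the 79 canonical ribosomal protein genes, 6 had a lower fold change at D6.

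Rpl36al was called lower at D4 and D6. Its levels were 997, 991 and 889 at D0, 833, 759.6 and 719 at D2, 683, 765 and 586 at D4, and 609, 511 and 517 at D6. Libraries of D2 already lay under those of D0, but the change of -0.32 ± 0.11 did not pass the test (adjusted p = 0.0562). It lay near the threshold and was called with reads of mapping quality of at least 10 (-0.37, adjusted p = 0.0395), at a barcode confidence of at least 0.9 (-0.39, 0.0258), with no filter (0.0485), with pseudogenes left out (0.0479) and without D0 replicate 3, D4 replicate 2, D4 replicate 3 or D6 replicate 1 (adjusted p between 0.0319 and 0.0425). It was also called with a replicate block (-0.32, adjusted p = 0.0369), and with total reads it was -0.16 (0.339). At D4 the log2 fold change was -0.51 ± 0.10 (adjusted p = 0.000118) and at D6 -0.82 ± 0.11 (5.5e-09), a level 1.77-fold lower.

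Rpl7l1 fell at D6 from a low level. It had 242, 225 and 179 CPM at D0 and 118, 111 and 143 at D6, with 34 to 54 reads behind each D6 value and 15 reads in the smallest D2 library. The log2 fold change was -0.79 ± 0.17 at D6 (adjusted p = 0.000179). At D2 and D4 it was -0.41 ± 0.20 and -0.41 ± 0.16, with adjusted p of 0.196 and 0.0574, and the D2 value was -0.65 without D2 replicate 2. The D4 value was called with reads of mapping quality of at least 10 (-0.55, adjusted p = 0.0183) and under median-of-ratios scaling (0.049). The D6 value was not called after thinning of all libraries to 121280 reads (-0.40, adjusted p = 0.309).

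Rps27l had the smallest change of the 4 paralogs on each day. Its libraries ranged from 590.4 to 659.6 CPM at D0, from 571 to 672 at D2, from 565 to 597 at D4 and from 455 to 540.0 at D6. Its log2 fold changes at D2 and D4 were -0.02 ± 0.12 and -0.10 ± 0.11, and at D6 the level fell 1.29-fold (-0.36 ± 0.11, adjusted p = 0.00681). This call depended on scaling and on single libraries. Scaled by total reads the change was -0.11 (adjusted p = 0.371), a scaling under which the median of all genes moved by 0.26 at D6, and the other 3 paralogs stayed called lower. It was also lost without D0 replicate 2 (-0.30, adjusted p = 0.0678), without D6 replicate 2 (-0.31, 0.0643) and without D6 replicate 3 (-0.27, 0.107).

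The levels were also taken by sequencing run. The runs of a day hold the same 3 libraries, so they add no replication. In CPM of a run, without scaling, Rpl22l1 lay between 1545 and 1604 in the 3 runs of D0 and between 912 and 1038 in the 4 runs of D6. Rpl36al lay between 826 and 890.4 in runs of D0 and between 490.0 and 604 in those of D6. For Rpl7l1 the values were 188–206 and 113–152, and for Rps27l 568–585 and 396–544. In each case the runs of D6 lay under the runs of D0, and the share of all genes for which this held was not taken.

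The parents did not all move with their paralogs. Rpl22 fell by 0.43 on the log2 scale at D4 and by 0.94 at D6 (limma-voom). Its D2 value of -0.29 was called, but not with median-of-ratios scaling (-0.26, adjusted p = 0.0828), total reads (-0.13, 0.31) or thinned libraries (-0.22, 0.395), nor without D0 replicate 2 or any one of the D2 libraries (-0.299 to -0.266, adjusted p between 0.086 and 0.122). Rpl36a had log2 fold changes of -0.04 at D2 and -0.10 at D4 (adjusted p = 0.848 and 0.338), and fell by 0.58 at D6. Its D4 value was called with reads of mapping quality of at least 10 (-0.34, adjusted p = 0.0042). Rpl7 fell by 0.41 at D6 (adjusted p = 1.79e-06), with values of -0.13 and 0.01 before, which were called with reads of mapping quality of at least 10 (-0.17 and -0.11, adjusted p = 0.0336 and 0.0224). Rpl39, the parent of the undetected Rpl39l, rose by 0.51 at D4 and had a value of 0.04 at D6, which was 0.30 and called with total reads (adjusted p = 4e-05). Its D2 value of 0.26 (adjusted p = 0.0357) was not called at a barcode confidence of at least 0.9 (0.17, 0.292), with pseudogenes left out (0.23, 0.0842), or without any one of the D0 and D2 libraries, D4 replicate 2 and D6 replicate 3 (0.21 to 0.27, adjusted p between 0.0696 and 0.181). Rps27 had 0.55 at D4 (adjusted p = 0.0018), a call lost with reads of mapping quality of at least 10 (0.43, 0.116), with thinned libraries (0.53, 0.0598) and without D0 replicate 2 (0.35, 0.0813). Its values were 0.19 at D2 and 0.14 at D6, the last 0.40 and called with total reads (adjusted p = 0.0226) and without D6 replicate 2 (0.0347). Leaving out D0 replicate 2 turned the sign of both, to -0.0114 at D2 and -0.0285 at D6. Rps27rt rose by 0.19 at D4 (adjusted p = 0.0291), with -0.06 at D6. With both copies summed, the mean log2 level changed by 0.02 at D2, 0.27 at D4 and -0.0070 at D6 (exact permutation p = 0.8, 0.1 and 0.9).

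**Figure D2:**
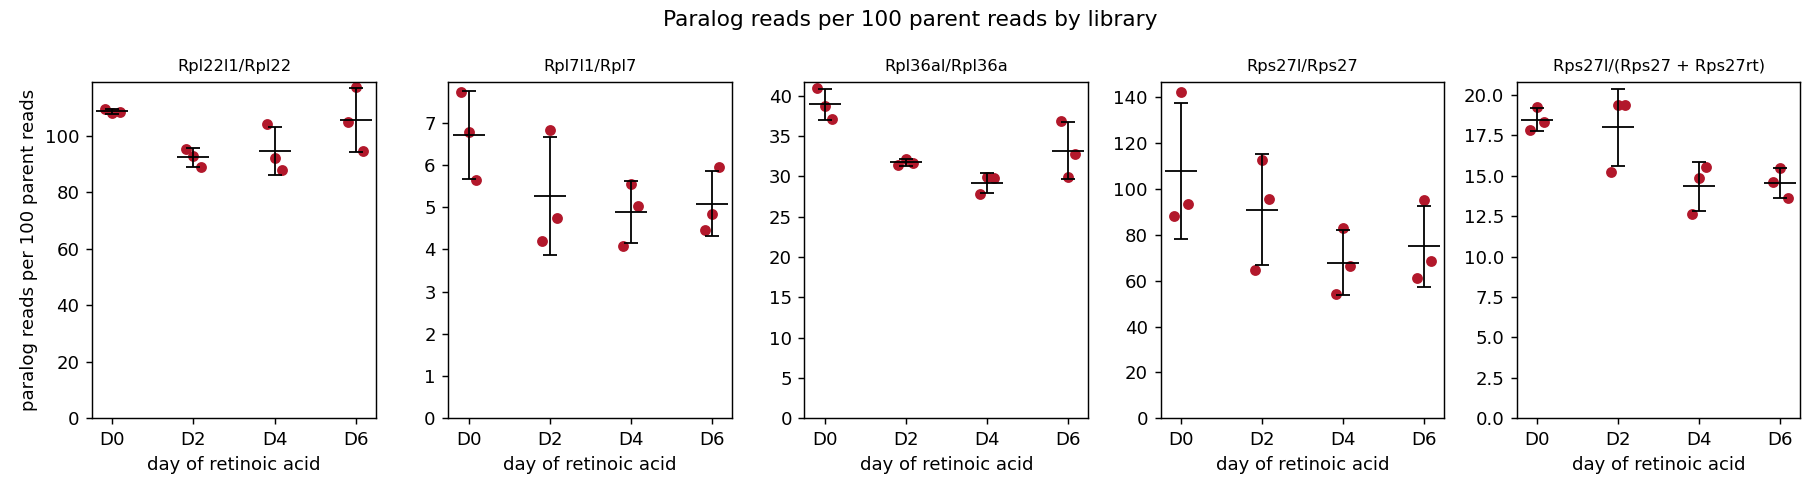
Reads of each paralog per 100 reads of its parent, by day, 1 point per library, with the mean and SD (n = 3), each panel from 0 on its own scale. The mean of Rpl36al was 39.0 per 100 Rpl36a reads at D0 and 29.2 at D4, and the fifth panel sets Rps27l against the summed reads of Rps27 and its copy.

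Ratios within a library do not depend on scaling. Rpl36al stood lower against Rpl36a on each later day, with 41.0, 38.7 and 37.2 reads per 100 in the D0 libraries, 31.4, 32.2 and 31.6 at D2, 27.8, 29.96 and 29.8 at D4, and 36.9, 29.96 and 32.8 at D6. The libraries of each later day lay under those of D0 (exact permutation p = 0.1, the smallest possible, for each of D2, D4 and D6), and the log2 ratio changed by -0.29, -0.42 and -0.23. With reads of mapping quality of at least 10 the changes were -0.22, -0.24 and -0.12, the last with overlapping libraries (exact permutation p = 0.4).

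The ratio of Rpl22l1 to Rpl22 was lower at D2 and D4 and overlapped with D0 at D6. It stood at 109.5, 108 and 109 reads per 100 at D0, between 88.8 and 95.5 at D2 and between 87.9 and 104 at D4, without overlap with D0 (exact permutation p = 0.1 for each), and lay between 94.6 and 117 at D6, where it overlapped with D0 on both sides (p = 0.7). No value could be given at a mapping quality of at least 10, because Rpl22 then had almost no reads. Rpl7l1 went from 6.72 to 4.89 reads per 100 Rpl7 reads at D4 without overlap (exact permutation p = 0.1) and to 5.09 at D6 with overlap (p = 0.2).

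For Rps27l the choice of parent mattered. Against Rps27 alone the mean moved from 108 reads per 100 at D0 to 68.0 at D4 (exact permutation p = 0.1) and 75.02 at D6 (p = 0.3), with 142 in D0 replicate 2 against 88.4 and 93.4 in the other libraries of that day. The libraries of D6 were at 61.4, 95.1 and 68.6, and replicate 2 had the highest value on each of the 4 days. With reads of mapping quality of at least 10 the log2 ratio to Rps27 changed by -0.58 at D6 and the libraries did not overlap (exact permutation p = 0.1). Against both copies summed the D0 libraries lay at 17.8, 19.2 and 18.3, those of D4 at 12.6, 14.9 and 15.5 and those of D6 at 14.6, 15.4 and 13.6. Neither D4 nor D6 overlapped with D0 (exact permutation p = 0.1 for each). At D2 the libraries overlapped with D0, both against the sum (15.3, 19.4 and 19.4) and against Rps27 alone (mean 91.0, exact permutation p = 0.6). The log2 ratio changed by -0.37 at D4 and -0.34 at D6. The share of the summed reads that fell on Rps27 was lowest in replicate 2 on each day.

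Tail changes that were called in most canonical genes were mostly not called in the paralogs. Of 79 canonical ribosomal protein genes, 76 had a higher share of reads with tails of 30 to 90 nt at D6 than at D0 and 77 had a shorter median tail (limma weighted by reads, adjusted over 4855 genes). These calls rest on the weights. The unweighted fit called 0 genes of any kind in either measure, with an unadjusted p under 0.05 in 61 and 65 of the 79, and the change had the same direction in all 79 in both fits. With reads of mapping quality of at least 10, 64 and 65 of the 75 canonical genes tested were called. Of the 4 paralogs, 0 had a higher share of 30 to 90 nt (limma, with an unadjusted p under 0.05 in 1 of them, Rpl22l1), and 1 had a shorter median, also Rpl22l1. Over all genes tested, 2.39% had a higher share of 30 to 90 nt and 2.51% a shorter median. The median change in the share was 1.695 points for the paralogs, 12.4 points for the canonical genes and -2.29 points over all genes. The paralogs ranged from -0.89 to 5.01 points and the canonical genes from 1.39 points (Rpl7a) to 19.2 points (Rps20).

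**Figure D3:**
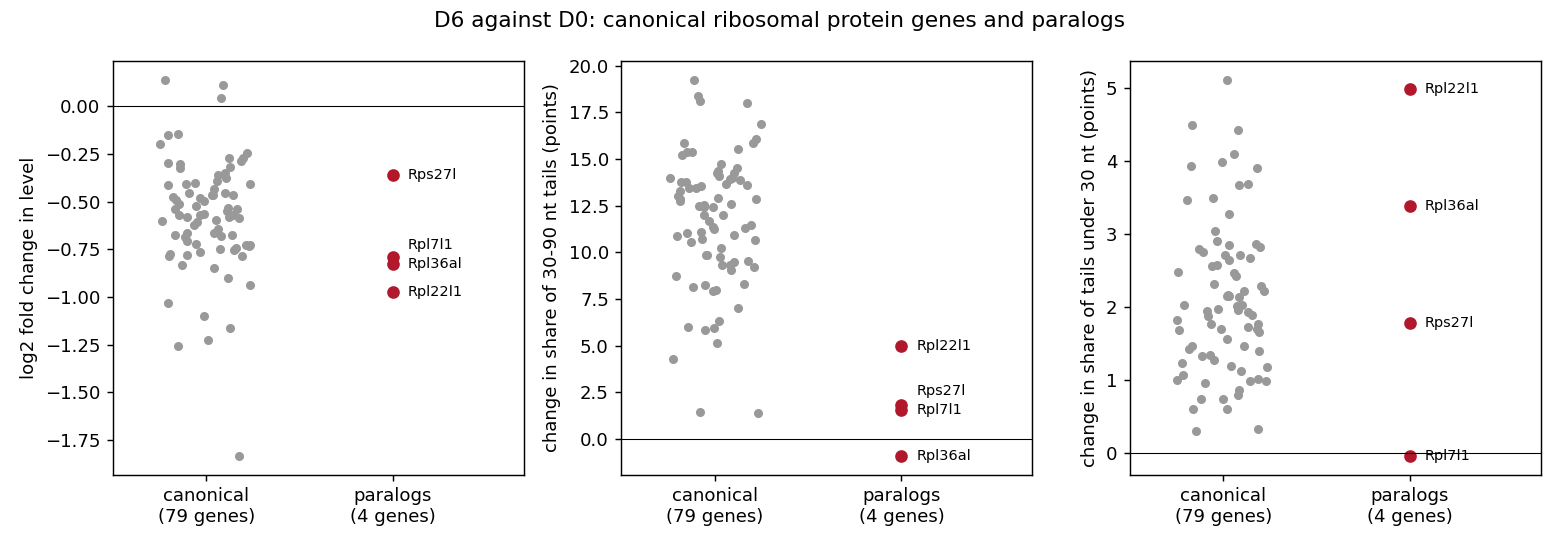
Difference between D6 and D0 in level (left), in the share of tails of 30 to 90 nt (middle) and in the share of tails under 30 nt (right), 1 point per gene, horizontal position within a column arbitrary. The paralogs lie among the 79 canonical genes in level and at their lower end in the share of 30 to 90 nt, where Rpl22l1 has 3 canonical genes under it, Rps27l and Rpl7l1 have 2 and Rpl36al has 0.

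Rpl22l1 was the 1 paralog of 4 whose median tail was called shorter. Its median tail was 95.6, 104.7 and 100.6 nt in the D0 libraries, 90.7, 88.1 and 93.2 nt at D2, 85.5, 88.2 and 82.7 nt at D4 and 87.0, 84.7 and 90.2 nt at D6. The libraries of each later day lay under those of D0, and the change at D6 was -13.9 ± 2.92 nt (SE, limma, adjusted p = 0.00165). The value was -12.5 nt with reads of mapping quality of at least 10, which were fewer, and was not called there (adjusted p = 0.0817), nor without D6 replicate 2 (-12.1 nt, adjusted p = 0.0594). The share of tails of 30 to 90 nt went from 40.2% ± 3.7 to 44.5% ± 1.3 (SD, n = 3), with overlapping libraries (exact permutation p = 0.3, limma adjusted p = 0.163). Without D0 replicate 1 that change was 6.68 points and was called (adjusted p = 0.0185).

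Tails under 30 nt made up 2.21%, 2.12% and 0.990% of its reads at D0, 1.35%, 4.33% and 4.19% at D2, 9%, 5.93% and 4.02% at D4 and 7.51%, 7.08% and 5.67% at D6. Libraries of D4 and D6 lay above all those of D0. The change of 4.99 ± 1.02 points at D6 missed the threshold (adjusted p = 0.0559) and passed it with reads of mapping quality of at least 10 (6.02 points, adjusted p = 0.0429), without D4 replicate 1 (adjusted p = 0.0212) and without D4 replicate 3 (0.0323). Of the 79 canonical genes, 78 had a smaller change, and 35 of the 79 were called higher, against 1.17% of all genes. That count was 0 in the unweighted limma fit, with an unadjusted p under 0.05 in 52. It was 19 without D0 replicate 2, 22 without D0 replicate 3, 20 without D6 replicate 1 and 18 without D6 replicate 2.

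In Rpl36al the median tail was not called changed, and the share of the shortest tails was called higher. Its median was 90.2, 89.1 and 92.8 nt at D0 and 86.5, 84.8 and 90.3 nt at D6, a difference of -3.57 ± 3.55 nt that was not called (adjusted p = 0.689). The share of 30 to 90 nt was 46.9%, 48.1% and 44.6% at D0 and 45.5%, 46.6% and 45.0% at D6, a difference of -0.89 ± 2.30 points. Libraries overlapped in both measures. The share under 30 nt rose from 2.83%, 2.74% and 2.82% to 6.82%, 6.83% and 4.71%, by 3.38 ± 0.66 points (adjusted p = 0.0457), the 1 paralog of 4 called higher. That call was lost with reads of mapping quality of at least 10 (3.45 points, adjusted p = 0.212), with a replicate block (3.37, 0.0749), with limits of 35 and 85 nt (3.07, 0.527), in the unweighted fit (3.32, 0.279) and without any one of D0 replicates 1, 2 and 3, D2 replicates 1, 2 and 3, D4 replicate 3 and D6 replicates 1 and 2. The change without any 1 of the 12 libraries stayed between 2.93 and 4.03 points.

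Rps27l and Rpl7l1 had no tail change that passed the test. The median of Rps27l was 96.7, 105.2 and 104.1 nt at D0 and 103, 97.9 and 99.2 nt at D6, and the difference was -2.76 ± 4.01 nt (adjusted p = 0.805). Its share of 30 to 90 nt was 37.3% ± 3.6 and 38.8% ± 1.7 on the same days. The share under 30 nt lay higher at D6 without overlap (2.201% ± 0.19 against 4.01% ± 1.18, exact permutation p = 0.1), but the limma difference of 1.77 points was not called (adjusted p = 0.358). The median of Rpl7l1 was 108, 116 and 117 nt at D0 and 105, 114 and 129 nt at D6, the longest tails of the 4 paralogs, and the difference was 3.60 ± 7.55 nt (adjusted p = 0.883). Its D2 values of 78.96, 110.1 and 92 nt rested on 15, 50 and 27 reads, as did shares of 30 to 90 nt of 60%, 34% and 44.4%. The standard error of the change in that share at D6 was 2.56 points for Rps27l and 4.80 points for Rpl7l1, the less deeply read of them.

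**Figure D4:**
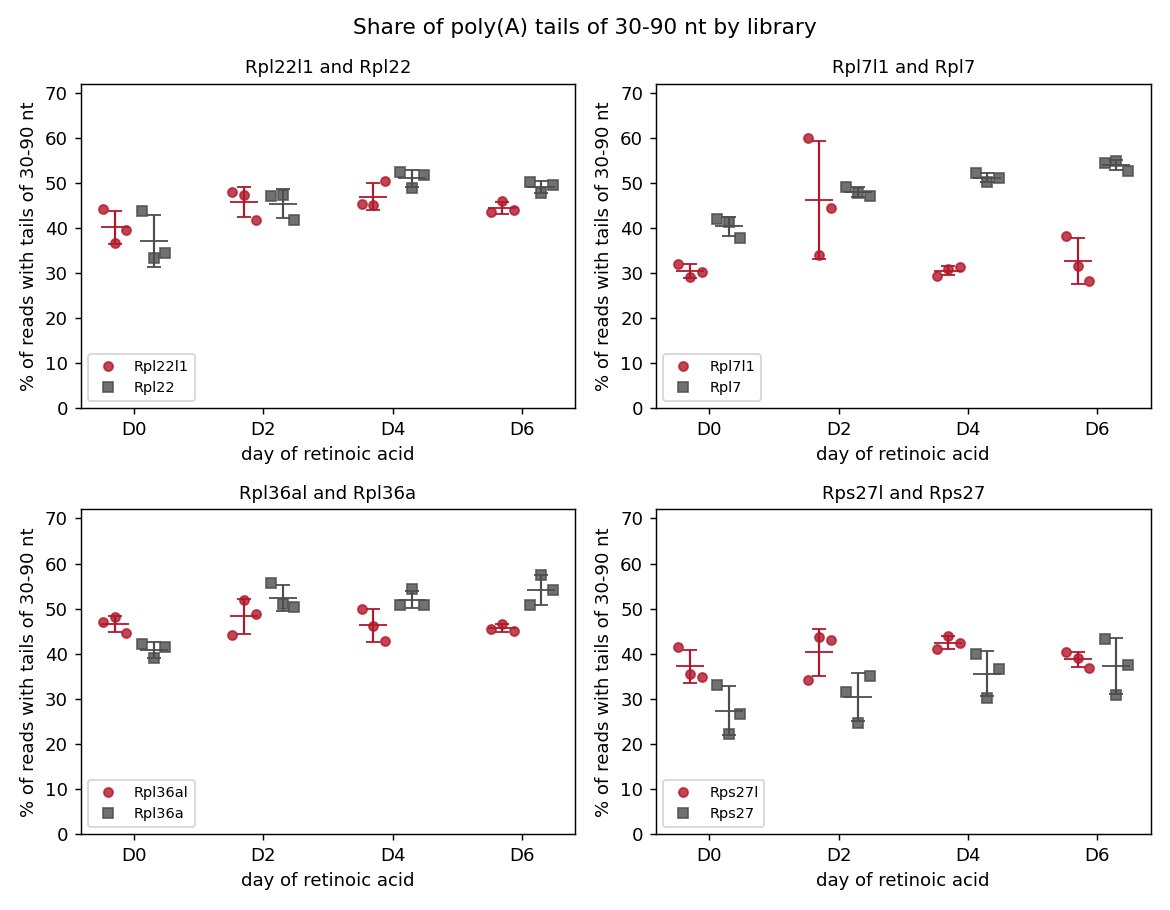
Share of reads with tails of 30 to 90 nt for each paralog (circles) and its parent (squares), by day, 1 point per library, with the mean and SD (n = 3). The 4 parents' means lay 9.90 to 13.6 points higher at D6 than at D0, and the shares of Rpl36al and Rpl36a changed places.

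The parents' tails were called shorter in the weighted fit. The change of the median tail at D6 was -18.04 nt in Rpl22, -17.2 nt in Rpl7, -20.4 nt in Rpl36a, -16.03 nt in Rps27 and -28.6 nt in Rpl39, called in 5 of 5 (limma), and the share of 30 to 90 nt rose in 5 of 5, from 9.86 points in Rps27 to 16.1 points in Rpl39. The calls of Rps27 were lost in both measures without D0 replicate 2, D0 replicate 3 or D6 replicate 1 (-14.96 to -12.9 nt and 6.75 to 9.37 points, adjusted p between 0.063 and 0.296). They were also lost with reads of mapping quality of at least 10 (-26.8 nt and 14.8 points, adjusted p = 0.0901 and 0.217) and, for the share, with limits of 35 and 85 nt (7.76 points, 0.0825). Rpl22 had too few reads to be tested at that mapping quality. Rps27rt had a change of -15.97 nt in the median and of 11.8 points in the share.

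The difference between paralog and parent was then taken within each library. For the share of 30 to 90 nt, Rpl36al stood 5.65 ± 3.11 points above Rpl36a at D0 (SD, n = 3) and its difference from Rpl36a was -8.46 ± 2.89 points at D6. The difference between Rpl22l1 and Rpl22 went from 2.97 ± 2.47 to -4.70 ± 2.55 points. That between Rpl7l1 and Rpl7 went from -9.93 ± 2.30 to -21.3 ± 4.44 points, and that between Rps27l and Rps27 from 9.92 ± 2.82 to 1.51 ± 5.82 points. In each of the 4 pairs the difference was lower at D6, and the libraries of D0 and D6 did not overlap. The exact permutation p was 0.1 for each of the 4 pairs, the smallest possible, and 0.1 after Benjamini-Hochberg adjustment over them. The median change in this share was 13.6 points for the 5 parents and -2.29 points over all genes tested. A gene with no change of its own would therefore also move lower against these parents. The share of all genes that would do so was not taken. For Rps27l the change was -8.41 points against Rps27 alone and -9.48 points against both copies summed. Tail differences between paralog and parent were not taken with reads of mapping quality of at least 10 alone. Those reads numbered 131 at D0 and 123 at D6 for Rps27, and 11 and 4 for Rpl22.

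In the median tail the difference from the parent went from -9.59 nt at D0 to 6.21 nt at D6 for Rpl36al, from 13.1 to 32.2 nt for Rpl7l1 and from -19.2 to -5.11 nt for Rps27l, without overlap (exact permutation p = 0.1 for each). The median change in tail was -18.04 nt for the 5 parents and 4.76 nt over all genes tested, so the limit given for the share holds here too. Against both copies of Rps27 summed, that of Rps27l went from -0.893 to 13.1 nt (exact permutation p = 0.1). For Rpl22l1 it went from -3.46 to 0.98 nt with overlapping libraries (exact permutation p = 0.2). For Rpl36al the difference from Rpl36a had already moved at D2 without overlap, to 1.43 nt in the median and -4.04 points in the share (exact permutation p = 0.1 for each).

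**Figure D5:**
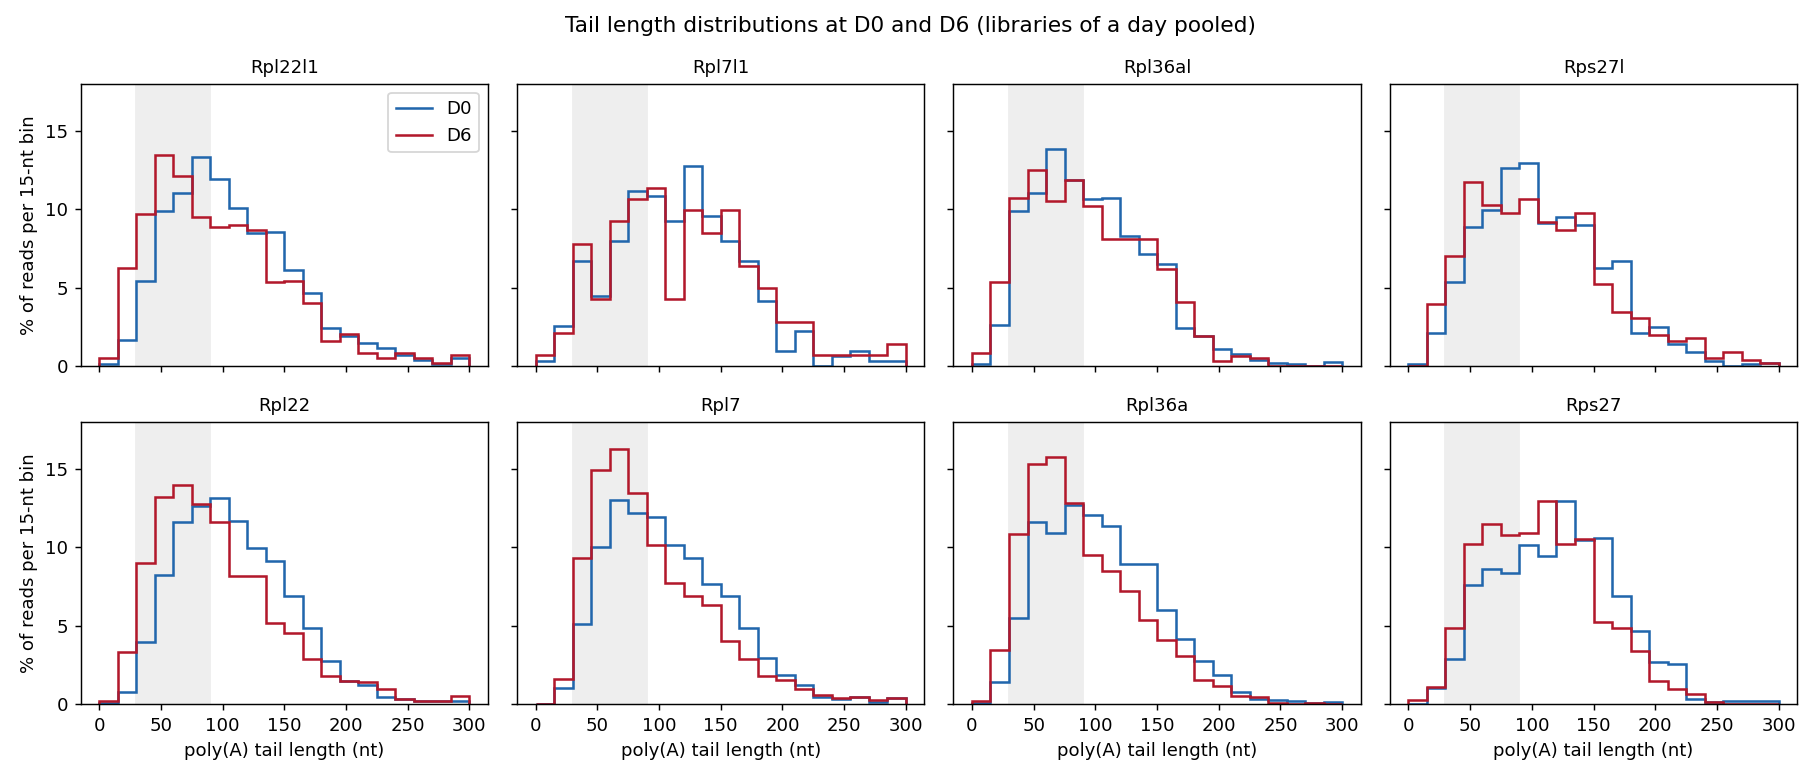
Distribution of tail lengths at D0 (blue) and D6 (red) in bins of 15 nt, as a percentage of a gene's reads with the libraries of a day pooled, paralogs above and parents below, the shaded band marking 30 to 90 nt and the last bin holding all longer tails. The parents gained reads within the band, while the medians over the pooled reads of Rpl36al, Rps27l and Rpl7l1 were 90.3, 102 and 114 nt at D0 and 87.7, 99.3 and 119.5 nt at D6.

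Quartiles over all reads of a day gave the ends of these distributions. The third quartile of Rpl36al stood at 127 nt on D0 and 129.6 nt on D6, while that of Rpl36a went from 136 to 117 nt. For Rps27l it was 141 nt and 140.3 nt, and for Rps27 154 and 138 nt. In Rpl22l1 the third quartile went from 141 to 129.5 nt, and in Rpl7l1 from 149.6 to 161 nt. The 10th percentile went from 49.7 to 35.9 nt in Rpl22l1, from 42.4 to 36.7 nt in Rpl36al, from 50.4 to 43.5 nt in Rps27l and from 45.7 to 44.7 nt in Rpl7l1. These values pool the libraries of a day and were not tested.

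The transcripts behind these levels were few. Rpl22l1 had 2 main coding transcripts that differ in the acceptor of their second exon, and the bases around that junction are shown because they add a codon near the start. Capitals mark the bases present in the longer form alone.
ENSMUST00000043867.10: aacatggcgccgCAGaaagacaagaag
ENSMUST00000194649.1: aacatggcgccgaaagacaagaag
The second exon starts at position 28806500 of chromosome 3 in the first form and at 28806503 in the second, which adds 3 bases to the coding sequence, 369 against 366 nt. The shorter form took 69.3% ± 0.4 of Rpl22l1 reads at D0 and 67.6% ± 0.8 at D6 (SD, n = 3), a difference of -1.72 points with no overlap (exact permutation p = 0.1). The longer form took 25.8% ± 0.8 and 27.4% ± 1.2 (exact permutation p = 0.2). A form annotated as a target of nonsense-mediated decay took 3.40% ± 0.87 of the reads at D0 and 2.68% ± 0.87 at D6 (exact permutation p = 0.4). The difference of 3 bases is small for reads of this kind, and how many reads were placed on the wrong form was not tested. Rpl36al reads lay on ENSMUST00000054544.6 in 88.0% of cases, with 84.5% ± 3.8 at D0 and 91.8% ± 0.96 at D6 and no overlap (exact permutation p = 0.1). Rps27l reads lay on ENSMUST00000040917.13 in 96.1% of cases and Rpl7l1 reads on ENSMUST00000078286.5 in 99.3%.

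Other gene lists give the surroundings of these changes. Of 24 assembly factors of the large subunit, the group in which Rpl7l1 works, 19 were lower and 0 higher at D6 (limma-voom), with a median of -0.80, against 18.8% of all genes lower and 18.9% higher, and 11 were lower at D4 (12.3% of all genes). The nucleolar GTPase Gnl3 fell by 1.56 on the log2 scale and Ppan by 1.47, while Nsa2 and Rrp1 fell by 0.47 and 0.43. Of 20 p53 targets, the group to which Rps27l belongs, 11 were tested and 2 were higher and 4 lower at D6, with a median of -0.25, beside the same shares of all genes. Ddit4, an inhibitor of mTOR, fell by 3.14 and Sesn2, another one, by 2.32, while Btg2, an antiproliferative gene, rose by 2.16 and Ei24 by 1.01. Among canonical genes Rpl12 and Rplp1 of the stalk fell by 1.23 and 1.16 and Rpl34 and Rpl21 by 0.24 and 0.20. In the small subunit Rps2 and Rps12 fell by 1.83 and 1.26, and Rps28 and Rps14 by 0.30 and 0.27.

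The genes whose levels followed each paralog most closely over the 12 libraries were found among 2807 others by Pearson's r of the log2 level. All libraries of a day share that day, so a high r says no more than a like course over the 4 days. For Rpl22l1 they were Igfbp2 (0.98), Galk1 (0.97) and Gapdh (0.97), and Rpl22 had an r of 0.93. For Rpl36al they were the elongation factor gene Eef1a1 (0.97), Nap1l1 (0.97) and the nucleolar Npm1 (0.96), and Rpl36a had 0.85. For Rps27l they were Ddx56 (0.94), Prdx4 (0.93) and Cks1b (0.91), with -0.02 for Rps27. For Rpl7l1 they were the pseudogene Rps18-ps5 (0.91), the amino acid transporter subunit Slc3a2 (0.90) and the ribosome assembly GTPase Bms1 (0.89), with 0.63 for Rpl7. Each paralog had many genes closer to it than its own parent, from 44 in Rpl22l1 to 1639 in Rps27l. The value for Rps27l rests on Rps27 alone, whose share of the reads of both copies differed between replicates. No correlation was taken with both copies summed.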

How the data were processed

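Poly(A) RNA of P19 cells was sequenced directly on nanopores in 12 libraries, 3 for each of D0, D2, D4 and D6, with the replicates of a day barcoded and run together. Per the study's methods, base calling by the authors used Guppy and alignment used Minimap2 2.20 with mm10 and GENCODE vM17 transcripts, and they then assigned barcodes with Deeplexicon and estimated tails with Nanopolish. The deposited table had 6306434 lines, 1 per alignment, with the tail length in nt, the mapping quality as a score and the confidence of the barcode call as a fraction. A second table deposited by the authors holds DESeq2 log2 fold changes and adjusted p-values and was not used. Run names of D0 carry a D2 mark and some runs of D6 name no day, and libraries were grouped by the labels and barcode columns.

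Here 69 malformed lines and lines with no barcode (4.59%) were left out, and lines tagged PASS (77.7% of those with a barcode) of class mRNA were tallied per gene and library. The PASS lines that repeated a read (0.176%) were kept. Genes with at least 30 reads were tested with limma-voom (limma 3.58.1, R 4.3.3) on all 12 libraries with day as the term, trimmed-mean scaling and a pseudocount of 0.5. Median tails and the percent of reads in a tail class were tested with limma, weighted by reads, for genes that averaged 10 reads or more over the libraries and were read in each. P-values were adjusted by Benjamini-Hochberg over all genes tested and called at 0.05. Single values of 3 against 3 libraries were compared by exact permutation (two-sided, no p under 0.1 possible). Ratios of paralog to parent were taken as log2 after 0.5 was added to each tally. The scripts were tested on simulated data.

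Levels rest on the kept reads of a library, and intervals for a count of 0 cover counting error only. Named genes were the paralogs, their parents, the 3 genes with the highest correlation with each paralog, and from each list the genes with the largest and smallest called changes. Rps27rt, Rpl7a and Rps20 were added after their values were seen. The members and lists were chosen with earlier results of these data known. Alternatives covered mapping quality, scaling, filters, pseudocounts, tail limits, weights, thinning, barcode confidence, a replicate block and leaving out each library. Leaving out pseudogene biotypes and summing Rps27 with Rps27rt were chosen after seeing the data. Transcripts and coordinates came from GENCODE vM21 (mm10) and start windows from RefSeq (GRCm38.p6), in which 9 of the 10 paralogs and parents had an entry.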

Additional observations from a re-analysis of the deposited data

How the results depend on the processing

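The fall of Rpl22l1 and Rpl36al at D6 kept its direction and its call under every alternative run. The genes called at D2 numbered 1010, and 603 at a mapping quality of at least 10, 1701 with no filter, 1600 with a pseudocount of 2 and 315 with libraries thinned to 121280 reads. Thinned libraries gave 648 calls at D4 and 1184 at D6, against 2379 and 3520 in the main fit. A mapping quality of at least 10 gave 2188 calls at D6, with 6730 genes tested. Total-read scaling moved the median of all genes by 0.16, 0.10 and 0.26 at D2, D4 and D6 and the share of higher calls from 44.6%, 51.6% and 50.2% to 65.4%, 61.9% and 68.7%, and at D2 the share was 69.5% with a pseudocount of 2 and 59.1% with no filter. In the thinned libraries the D6 values of Rpl7l1 (-0.40) and Rps27l (-0.23) were not called, nor was Rps27l (-0.11) with total reads. Signs turned in values that had not been called, and the cause was not tested. Rps27l at D2 was 0.0185 with median-of-ratios scaling, 0.15 with total reads and 0.15 thinned, and 0.0068 at D4 with total reads. At D2 Rpl7 was 0.0341 and Rpl36a 0.12 with total reads, and Rpl36a 0.0733 thinned. At D4 Rpl7 was -0.11 at a mapping quality of at least 10, where it was called (adjusted p = 0.0224), -0.0083 with median-of-ratios scaling, -0.0593 thinned and -0.0093 without pseudogenes, and Rpl36a was 0.00069 with total reads and 0.0024 thinned. Unweighted tail fits called 0, 0 and 6 genes for the median, the 30 to 90 nt share and the share under 30 nt, against 231, 161 and 63, and limits of 35 and 85 nt called 97 for the last. The median of Rpl22l1 changed by -12.5 nt at a mapping quality of at least 10 and -13.0 nt unweighted, not called in either. Its share under 30 nt was called at a mapping quality of at least 10 (6.02 points), with the other limits (6.30) and over genes with a mean of at least 30 reads (4.99). The Rpl36al share under 30 nt was not called at a mapping quality of at least 10 (3.45), unweighted (3.32), with the other limits (3.07) or with a replicate block (3.37, adjusted p = 0.0749). Rpl7l1 had -4.99 points for the middle share with the other limits, and for the share under 30 nt 0.98 unweighted, 1.59 with the other limits and 0.028 with the block. The Rpl36al ratio changed by -0.22 at D2 and -0.24 at D4 at a mapping quality of at least 10, where no Rpl22l1 ratio could be given.

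Replicate numbers are shared across days, but deviations of the 18 same-numbered pairs correlated at -0.13 to 0.18 over 2808 genes, and 4 pairs exceeded 0.1. In 9 of 12 libraries the highest single correlation was with a library of the same number, but 0 had it on every other day. The 9 same-numbered pairs without D0 lay between 0.031 and 0.175, and pairs of other numbers without D0 between -0.20 and 0.13. With D0 included, pairs of other numbers lay between -0.20 and 0.17. The labels do not say what a number stands for and not every pair exceeded 0.1, so the samples were treated as sharing only a number, and the correlations are a hint from the data and not the design. The block also called Rpl36al at D2 (-0.32, adjusted p = 0.0369). With it 1078, 2419 and 3560 genes were called at D2, D4 and D6, and 251, 165 and 70 for the 3 tail measures.

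Without any 1 library the calls at D2 ranged from 652 to 1032 and those for the share under 30 nt from 31 to 75. Log2 changes ranged from -0.65 to -0.31 for Rpl7l1, -0.0831 to 0.0205 for Rps27l, -0.0905 to 0.0060 for Rpl36a and -0.0114 to 0.41 for Rps27 at D2. They ranged from -0.0630 to 0.0630 for Rpl7 and -0.20 to 0.0015 for Rpl36a at D4. At D6 they ranged from -0.40 to -0.27 for Rps27l, -0.0285 to 0.40 for Rps27 and -0.00075 to 0.14 for Rpl39. The median tail change ranged from -15.9 to -11.4 nt for Rpl22l1 and -3.53 to 7.64 nt for Rpl7l1. The middle share ranged from 3.04 to 6.68 points for Rpl22l1, -0.445 to 3.74 for Rpl7l1 and -1.80 to 0.015 for Rpl36al, and the share under 30 nt from 4.61 to 5.46, -1.94 to 1.78 and 2.93 to 4.03 points.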
